A study of Mus musculus with 18 samples.

Results

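The miRNAs mmu-miR-375-3p, mmu-miR-7a-5p, mmu-miR-9-5p and mmu-miR-137-3p, known from hormone-secreting and nerve cells, were followed in HEAP libraries of mouse colonic epithelium. They were taken by name, are written below without the species prefix, and make up 4 of the 459 mature miRNAs in the deposited table. HEAP is a form of CLIP-seq in which Halo-tagged Argonaute 2 (Ago2), the protein that carries miRNAs to their targets, is pulled down from crosslinked tissue, so that a level here is the amount of a miRNA held by Ago2 in scraped distal colon. The G12D mice were Halo-Ago2/+; Fabp-Cre/+; K-Ras-G12D/+ and expressed oncogenic K-Ras in the colonic epithelium. The WT mice were Halo-Ago2/+; Fabp-Cre/+ with wild-type K-Ras. All mice were C57BL/6 and 8 to 12 weeks old, and both genotypes carried the tagged Ago2 and the Cre, so no group without them enters any comparison. Fabp-Cre uses a fatty acid binding protein promoter active in intestinal epithelium. The labels do not say whether the tagged Ago2 depends on Cre, so miRNAs of epithelial and of other scraped cells cannot be told apart. There were 3 libraries of miRNA and 3 of pulled-down mRNA per genotype; the 6 input controls were not analysed here. Whether separate libraries stand for separate mice is not stated in the labels, so the p-values measure the spread between libraries, which may be technical. In bulk tissue, fewer cells of a type and less miRNA per cell cannot be told apart.

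Enteroendocrine cells are the hormone-producing cells scattered through the gut epithelium, and they share many regulators with pancreatic islet cells. miR-375 is best known for restraining insulin secretion in islet beta cells and is also carried by gut endocrine and other epithelial cells. miR-7 is enriched in endocrine cells and neurons, where it acts on growth factor signalling. miR-9 and miR-137 are known mainly from neural progenitors and neurons. A miRNA finds its targets mostly through its seed, bases 2 to 8 counted from the 5′ end.

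The mature sequences are shown because the seed decides which Ago2 sites can be assigned to each miRNA. The sequences are RefSeq's, with GRCm38.p6 coordinates, and capitals mark the seed; a mature sequence was matched for 3 of the 4 members. miR-7b-5p was added since it has the seed of miR-7a-5p, and for miR-375-3p the Mir375 hairpin is given.
miR-7a-5p: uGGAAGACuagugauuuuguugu
miR-7b-5p: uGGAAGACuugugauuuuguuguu
miR-9-5p: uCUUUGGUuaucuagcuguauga
miR-137-3p: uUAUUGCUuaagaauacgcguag
Mir375 hairpin: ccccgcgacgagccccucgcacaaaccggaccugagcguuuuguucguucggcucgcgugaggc

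miR-7a-5p comes from 2 hairpins, Mir7-2 (mature arm at chr7:78888295-78888317, plus strand) and Mir7-1 (chr13:58392841-58392863, minus strand). miR-7b-5p (chr17:56243017-56243040, plus strand) differs from it by the substitution A10U, counted from the 5′ end of miR-7a-5p, and by 1 extra base at the 3′ end. The 2 forms therefore share every seed site, and how the authors' counting divided reads between them is not given in the sources used here. miR-9-5p comes from 3 hairpins on the plus strand, at chr3:88215613-88215635, chr13:83738821-83738843 and chr7:79505279-79505301. miR-137-3p has 1 hairpin (chr3:118433901-118433923, plus strand), and Mir375 lies at chr1:74900658-74900721 on the minus strand. The seeds of miR-7a-5p, miR-9-5p and miR-137-3p are all different.

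The miRNA libraries held 337788, 388247 and 433245 reads in G12D, against 437439, 535932 and 466178 in WT. Values are given as normalized reads, the reads of a mature miRNA divided by the authors' factor for that library. Over the 6 libraries the members spanned a wide range of levels, from miR-375-3p at rank 15 of 459 by mean level through miR-7a-5p at rank 68 and miR-137-3p at rank 165 to miR-9-5p at rank 233. miR-375-3p lay above miR-7a-5p, and miR-7a-5p above the other 2 members, in each of the 6 libraries. The values of miR-137-3p and miR-9-5p overlapped in G12D, and in WT those of miR-137-3p were all the higher. Levels are compared without a correction for length, the printed mature forms being 23 or 24 bases long.

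Among the members, miR-137-3p fell and miR-9-5p rose in G12D by limma, while neither miR-375-3p nor miR-7a-5p passed. The calls were thus in the 2 low members, known as neural, with opposite signs, and that of miR-9-5p was lost in most other settings. Of all 254 miRNAs tested, 15.7% passed, 9.06% as higher and 6.69% as lower in G12D. The members' median log2 fold change was 0.06, beside 0.11 over all miRNAs tested.

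miR-375-3p had 9673, 9192 and 8108 normalized reads in the G12D libraries, against 7301, 7842 and 6070 in the WT libraries. Every G12D library lay above every WT library, an arrangement that 16.1% of tested miRNAs showed; 3 of the 4 members had groups that did not overlap, beside 29.5% of all tested. The means were 8991 ± 801 in G12D and 7071 ± 908 in WT (SD, n = 3 each), a ratio of 1.27. The log2 fold change was 0.35 ± 0.19 SE, with a 95% interval of -0.04 to 0.74, and did not pass (limma adjusted p = 0.241). As a share of each library's miRNA reads, miR-375-3p took 2.09, 1.78 and 1.73% in G12D and 1.76, 2.15 and 1.74% in WT, and on that scale the groups overlapped. Rescaling each library to the same total moved the log2 fold change to -0.013, while it moved the median of all tested miRNAs to -0.26.

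miR-7a-5p had 874, 962 and 630 normalized reads in the G12D libraries, against 1036, 666 and 1225 in the WT libraries. The groups overlapped, and the WT libraries were the more spread. The means were 822 ± 172 in G12D and 976 ± 285 in WT (SD, n = 3 each), with a log2 fold change of -0.22 ± 0.29 SE and a 95% interval of -0.80 to 0.35 (limma adjusted p = 0.666). The seed partner miR-7b-5p was far lower, at 50.7, 48.0 and 31.4 normalized reads in G12D, against 104, 49.7 and 92.0 in WT. Its groups overlapped through WT replicate 2, and its log2 fold change of -0.87 ± 0.41 SE did not pass (limma adjusted p = 0.153). It passed in 2 of 16 other settings, without WT replicate 2 at -1.19 (limma adjusted p = 0.0285) and with the same total per library at -1.22. Neither edgeR nor DESeq2 called it. miR-7a-1-3p, the opposite arm of the Mir7-1 hairpin, ran the other way in its means, 56.9 ± 15.4 in G12D and 32.5 ± 10.2 in WT, without passing (log2 fold change 0.79, limma adjusted p = 0.218).

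miR-9-5p was sparsely sequenced, with 13, 28 and 16 reads in the G12D libraries, against 10, 13 and 11 in the WT libraries. In normalized reads these were 17.8, 37.3 and 17.4 in G12D and 9.48, 8.85 and 8.23 in WT. All G12D libraries lay above all WT libraries, and G12D replicate 2 stood well above the other 2 of its group. The means were 24.2 ± 11.4 in G12D and 8.85 ± 0.624 in WT (SD, n = 3 each), a log2 fold change of 1.27 ± 0.45 SE that passed narrowly (limma adjusted p = 0.0474). In reads per 1000000 miR-9-5p had 38.5, 72.1 and 36.9 in G12D against 22.9, 24.3 and 23.6 in WT, and the Wilson 95% intervals of G12D replicates 1 and 3 overlapped those of every WT library. The call was lost in 10 of 15 other settings, with the sign kept in all 15. Leaving out G12D replicate 1, 2 or 3 or WT replicate 3 gave limma adjusted p-values of 0.0554, 0.246, 0.0645 and 0.155. The authors' deposited table gives a log2 fold change of 1.05 with an adjusted p of 0.0983. The opposite arm, miR-9-3p, had at most 1 read in any library and was not tested.

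miR-137-3p had 11, 25 and 27 reads in the G12D libraries, against 92, 83 and 112 in the WT libraries. In normalized reads these were 15.1, 33.3 and 29.3 in G12D and 87.2, 56.5 and 83.8 in WT. The groups were well apart, with every G12D library below every WT library, which 13.4% of tested miRNAs showed. The means were 25.9 ± 9.59 in G12D and 75.8 ± 16.8 in WT (SD, n = 3 each). The log2 fold change of -1.56 ± 0.42 SE passed (limma adjusted p = 0.010), with a 95% interval of -2.42 to -0.71. In reads per 1000000 it had 32.6, 64.4 and 62.3 in G12D against 210, 155 and 240 in WT, and no Wilson 95% interval of a G12D library reached that of a WT library. The call was kept in 14 of 16 other settings. It ended without G12D replicate 1, where the log2 fold change was -1.23 (limma adjusted p = 0.0985), and without WT replicate 3, at -1.48 (limma adjusted p = 0.0706). In the authors' deposited table it had a log2 fold change of -1.30 with an adjusted p of 0.00725, the only member called there, where 9.23% of all miRNAs with an adjusted p were.

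**Figure D1:**
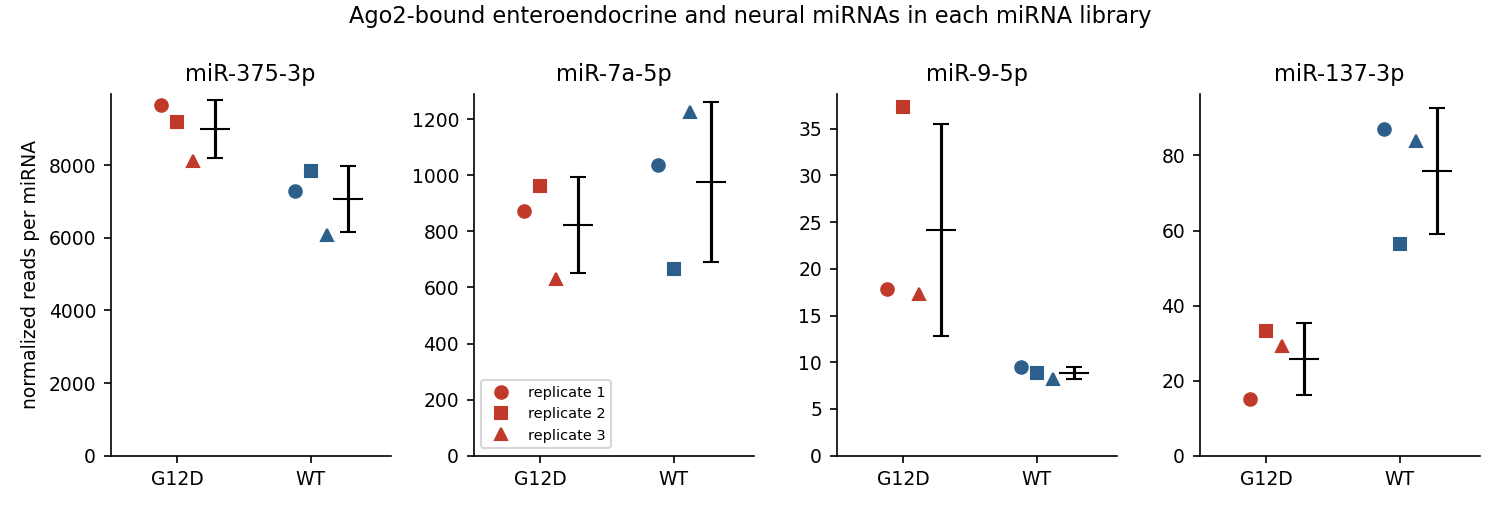
Normalized reads per miRNA library (linear y axes starting at 0, a separate scale per panel) for the 4 members, with G12D left of WT. Symbols are replicates 1, 2 and 3, and the horizontal line and bar beside them are the mean ± SD (n = 3). The groups overlap for miR-7a-5p alone, and miR-137-3p is the member whose G12D values, 15.1 to 33.3, lie farthest below WT, at 56.5 to 87.2.

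**Figure D2:**
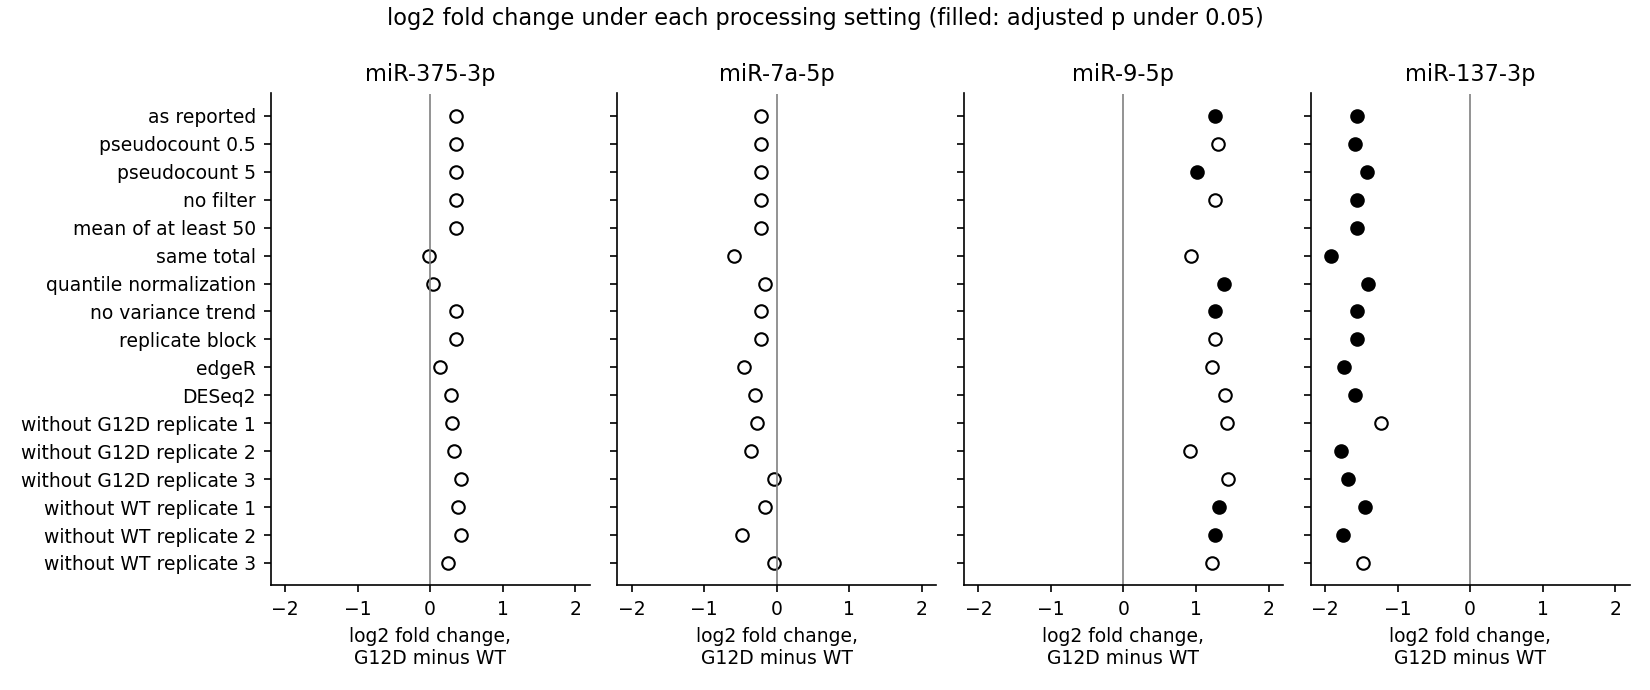
The log2 fold change, G12D minus WT, of each member (x axis) under the analysis as reported and each other setting (y axis), with filled points where the adjusted p was under 0.05. miR-375-3p and miR-7a-5p have no filled point, the points of miR-9-5p run from 0.92 to 1.45 and are mostly open, and those of miR-137-3p run from -1.92 to -1.23 with 2 open points. miR-9-5p has no point at a mean of at least 50 because it did not reach that level.

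Ratios between members within a library do not depend on the library's scaling factor. There were 5 ratios, chosen after the values had been seen. Each was compared by a two-sided exact permutation test, which cannot go below p = 0.1 with 3 libraries per genotype. The ratio of miR-137-3p to miR-9-5p was 0.846, 0.893 and 1.69 in G12D, against 9.20, 6.38 and 10.2 in WT. In G12D the 2 were at similar read numbers, while in WT miR-137-3p outnumbered miR-9-5p in every library. The log2 difference was -2.96 (exact permutation p = 0.1, 0.167 after Benjamini-Hochberg adjustment over the 5 ratios). miR-375-3p reads per miR-137-3p read numbered 642, 276 and 277 in G12D, against 83.7, 139 and 72.5 in WT, with no overlap (exact permutation p = 0.1, adjusted 0.167). In normalized reads miR-137-3p lay wholly below WT, and miR-9-5p and miR-375-3p wholly above. The separation of these ratios, and so their p-values, was thus already set and adds no support. The 2 miR-7 forms stood at 17.2, 20.1 and 20.03 reads of miR-7a-5p per read of miR-7b-5p in G12D, against 9.94, 13.4 and 13.3 in WT. These also did not overlap, with a log2 difference of 0.66 (exact permutation p = 0.1, adjusted 0.167). The ratios of miR-375-3p to miR-7a-5p and of miR-7a-5p to miR-7a-1-3p overlapped between the genotypes (exact permutation p = 0.3, adjusted 0.3, for each).

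**Figure D3:**
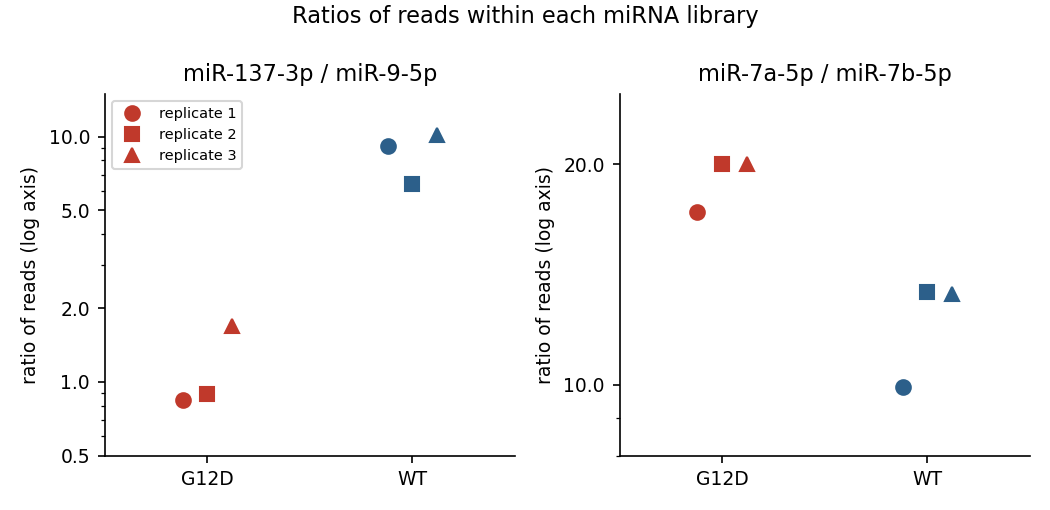
Ratio of reads within each miRNA library (log y axes) for miR-137-3p over miR-9-5p and for miR-7a-5p over miR-7b-5p, with G12D left of WT and symbols for the 3 replicates. The miR-137-3p ratio is at most 1.69 in G12D and at least 6.38 in WT, and the miR-7 ratio is at least 17.2 in G12D and at most 13.4 in WT.

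The miRNAs whose levels followed each member most closely were found by Pearson's r of log2(normalized reads + 1) over the same 6 libraries, so that each r includes the difference between genotypes and any difference in depth. For miR-375-3p they were miR-425-5p (0.92), miR-92a-3p (0.91) and miR-27a-3p (0.91). miR-7a-5p was most like miR-542-3p (0.96), let-7f-5p (0.95) and miR-379-5p (0.93). The nearest to miR-9-5p were miR-374b-5p (0.95), miR-652-3p (0.95) and miR-27b-3p (0.94). miR-137-3p was closest to miR-362-3p (0.94), miR-543-3p (0.91) and miR-153-3p (0.86), the last another miRNA known from neurons. Between the members themselves, r was -0.87 for miR-375-3p with miR-137-3p, 0.76 for miR-375-3p with miR-9-5p and -0.44 for miR-375-3p with miR-7a-5p. It was -0.67 for miR-9-5p with miR-137-3p, 0.43 for miR-7a-5p with miR-137-3p and -0.12 for miR-7a-5p with miR-9-5p.

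A wider list of 14 other neural miRNAs held 10 in the table, of which 6 were tested. Limma called 0 of these 6, with 3 at an unadjusted p under 0.05, and edgeR and DESeq2 each called 1. Their median log2 fold change was -0.56, beside 0.11 over all miRNAs tested. miR-153-3p, the most abundant, had 1675, 2031 and 1544 normalized reads in G12D, against 2908, 2078 and 3512 in WT, with all G12D libraries below all WT libraries. Its log2 fold change of -0.67 missed the threshold (limma adjusted p = 0.0526) and passed in 8 of 16 other settings, edgeR and DESeq2 among them. miR-128-3p and miR-132-3p lay below WT in every G12D library without passing, at log2 fold changes of -0.58 and -0.53. Of all tested miRNAs, 13.4% had every G12D library below every WT library. miR-138-5p, too low to be tested, had 2.74, 2.67 and 4.34 normalized reads in G12D, against 9.48, 14.3 and 12.7 in WT. miR-218-5p ran the other way, at 155, 220 and 162 normalized reads in G12D and 117, 74.9 and 111 in WT (log2 fold change 0.83, limma adjusted p = 0.111). Of the 6 tested, miR-218-5p was the only one with a positive log2 fold change.

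Lists for the other cell types that scraped colon can hold were read beside the members. Of 3 tested miRNAs known from smooth muscle and stroma, limma, edgeR and DESeq2 called 0, and 0 had an unadjusted p under 0.05. Their 4 detected members summed to 131 to 214 normalized reads in G12D and 127 to 315 in WT. Of 4 tested blood and endothelial miRNAs limma called 0, with 2 at an unadjusted p under 0.05, and edgeR and DESeq2 each called 1. The 2 moved in opposite directions. miR-146a-5p, the one called by edgeR and DESeq2, had 1258, 989 and 844 normalized reads in G12D, against 1286, 1479 and 2651 in WT (log2 fold change -0.75, limma adjusted p = 0.0526). miR-142a-3p, known from blood cells, had 926, 1049 and 799 in G12D, against 561, 510 and 701 in WT (log2 fold change 0.65, limma adjusted p = 0.102). Neither overlapped between genotypes. That list summed to 1685 to 2248 normalized reads in G12D and 1914 to 3402 in WT. The 8 epithelial miRNAs summed to 117306 to 141819 normalized reads in G12D and 83557 to 120863 in WT. Normalized totals were 462531, 517334 and 469831 in G12D, against 414529, 364832 and 348678 in WT, and no sum was corrected for this. Limma called 3 of the 8 higher, beside 9.06% of all tested, with a list median of 0.43, and edgeR and DESeq2 called 0. With the same total per library the 3 calls ended, at log2 fold changes of 0.20 (miR-200b-3p), 0.14 (miR-192-5p) and 0.17 (miR-194-5p). No list had a measured miRNA at 0 in all 6 libraries, and the part of cell composition in the members' levels was not tested.

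The label was also set against marker genes, which can be seen here only where Ago2 formed a peak. Of 22 enteroendocrine genes, 3 had a peak, and of 19 neuron and glia genes, 0 had one. The share of all genes with a peak was not worked out, so these counts have no background beside them. The 3 were the secretory granule proteins Chga and Chgb and the gut hormone gene Pyy, with 4 peaks in all. Each of the 4 came from the authors' G12D peak list alone, as did 4275 of all 5554 merged peaks. The Pyy peak, in an exon at chr11:102107258-102107318, had 21.8, 32.0 and 57.5 normalized reads in G12D, against 17.0, 8.69 and 9.02 in WT. In the G12D list alone 47.0% of all tested peaks were higher, beside 36.2% of all peaks tested. The Pyy peak, which entered through that list alone, was higher in G12D, with a log2 fold change of 1.55 ± 0.50 SE (limma adjusted p = 0.0235). That call ended in 6 of 16 other settings, among them those without G12D replicate 2 (limma adjusted p = 0.0752), G12D replicate 3 (0.131) or WT replicate 3 (0.0603). The 2 Chga peaks and the Chgb peak were below the filter. The Chga peak at chr12:102554996-102555045 had 10.9, 2.06 and 12.9 normalized reads in G12D, against 0 in each WT library, and the one at chr12:102564913-102564971 had 4.36, 7.43 and 7.90 in G12D, against 0, 0 and 3.87 in WT. The Chgb peak overlapped between genotypes, with 5.12 ± 1.17 in G12D and 4.70 ± 4.13 in WT (SD, n = 3 each). None of the 4 peaks carried a miR-7 or miR-375 site.

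The sites at which Ago2 was found come from the pulldown mRNA libraries, whose reads in merged peaks numbered 148927, 723937 and 247358 in G12D and 100978, 54401 and 148770 in WT. The authors called peaks per genotype, and of the 5554 merged peaks 4275 were in the G12D list alone, 834 in both lists and 445 in the WT list alone. This imbalance bears on the marker gene peaks above and on every count below. Without the input libraries, changes of a peak and of the transcript under it cannot be told apart. The authors' annotation assigns seed matches of 75 miRNA families to peaks, among them miR-7-5p (the seed of miR-7a-5p and miR-7b-5p, whose site reads GTCTTCC in the target) and miR-375-3p. It names no family for miR-9-5p or miR-137-3p. The 2 members that limma called, miR-9-5p only narrowly, thus have no annotated sites to set beside their levels. A site is counted below where it is an 8mer or a 7-mer match to bases 2 to 8.

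miR-7 sites were found in 77 peaks in 77 differently labelled genes, which placed the family 18th of 75, and miR-375 sites in 8 peaks, which placed it 70th, tied with others of that number. The more abundant member thus had the fewer sites: miR-375-3p outnumbered miR-7a-5p in every library. Counting weaker matches as well, miR-7 had 212 peaks and miR-375 had 104. The 77 miR-7 peaks comprised 23 8mer and 54 7-mer sites, with 50 in 3′ UTRs, 16 in exons, 7 in introns, 3 in 5′ UTRs and 1 in a 3′ UTR class that the authors mark with an asterisk. Of the 8 miR-375 peaks, 7 were 8mers, and 5 lay in exons, 2 in 3′ UTRs and 1 in an intron. Another family's site was present in 33 of the 77 miR-7 peaks and 3 of the 8 miR-375 peaks. Over all peaks with such a site, 966 of 3255 had sites of more than 1 family. That count takes each peak once, while a peak with more than 1 family counts under each of them in a share per family. The overall share is thus no like background for the miR-7 and miR-375 counts. miR-141-3p was the family most often found beside miR-7, in 5 peaks.

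**Figure D4:**
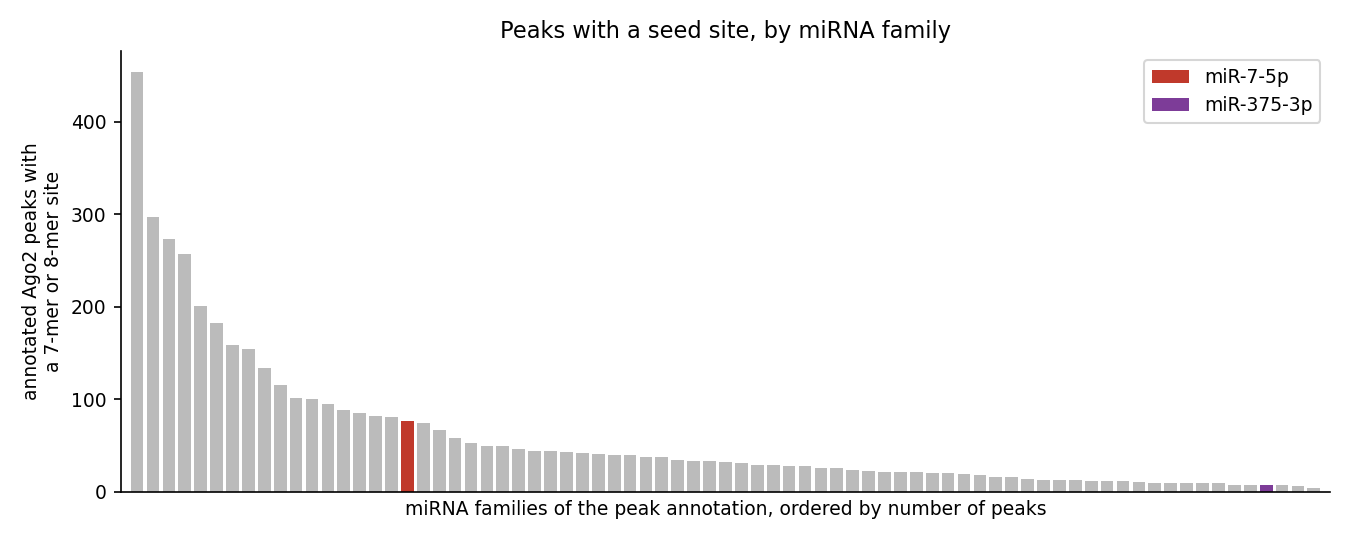
Number of annotated Ago2 peaks with a 7-mer or 8-mer site (y axis, linear from 0) for each of the 75 miRNA families of the annotation, ordered by that number. miR-7-5p, with 77 peaks, stands in the upper part of the order, and miR-375-3p, with 8, is near the low end.

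Of the 65 miR-7 peaks that passed the filter, limma called 27 higher and 3 lower in G12D, 46.2% in all, where 48.9% of all 4438 peaks tested were called. The share called higher was 41.5%, beside 36.2% of all peaks, and the share called lower 4.62%, beside 12.7%. Their median log2 fold change was 1.29, beside 1.05 over all peaks tested. These shares followed the authors' lists. In the G12D list alone 47.3% of 55 tested miR-7 peaks were higher, beside 47.0% of all such peaks, and in both lists 1 of 9 was higher and 2 were lower, beside 13.9% and 25.6%. The miR-7 peaks were thus near the background of the same list. All 3 G12D libraries lay above the 3 WT libraries in 34 of the 65 and below them in 3, where 59.1% of all tested peaks had groups without overlap, 43.9% above and 15.2% below. By the authors' deposited table, 35 of the miR-7 peaks are higher and 3 lower in G12D, where 49.5% of all peaks are called, 37.9% higher and 11.6% lower. Of the 8 miR-375 peaks, all tested, 1 was higher and 3 were lower, with a median of -0.60, and 12.7% of all peaks were lower. The 1 peak of each family in the WT list alone was lower, as were 74.3% of all peaks of that list, with 0.676% higher; in the G12D list alone 0.663% of all peaks were lower. Over both families, 28 peaks were higher and 6 lower. Other scalings changed this split to 12 and 9 with quantile normalization and to 20 and 10 with edgeR, and they moved the split of all peaks from 1607 higher and 563 lower to 873 and 802 and to 1093 and 894. Leaving out G12D replicate 2, the deepest library, left 17 higher and 3 lower.

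As a share of all reads in merged peaks, miR-7 sites held 0.880, 0.956 and 0.830% in the G12D libraries, against 0.394, 0.542 and 0.429% in the WT libraries. The groups did not overlap, with means of 0.889 ± 0.063% in G12D and 0.455 ± 0.077% in WT (SD, n = 3 each). These shares are a description with no test, since 67 of the 77 peaks entered the sum through the G12D list alone. Those 67 held 0.651 ± 0.061% in G12D and 0.190 ± 0.074% in WT, and the 1 peak of the WT list alone held 0.0014 ± 0.0006% in G12D and 0.0268 ± 0.0024% in WT. All 4275 peaks of the G12D list alone held 44.2 ± 4.94% of reads in G12D and 13.7 ± 1.25% in WT. In the 9 miR-7 peaks called in both lists, a split chosen after the data were seen, the share was 0.237 ± 0.016% in G12D and 0.238 ± 0.039% in WT, and the groups overlapped. All 834 peaks called in both lists held 52.5 ± 4.33% of reads in G12D and 68.4 ± 1.79% in WT, with every G12D library below every WT library. miR-375 sites held 0.103, 0.127 and 0.102% in G12D, against 0.174, 0.171 and 0.332% in WT, with G12D below WT throughout. Most of these reads were in the 3 peaks called in both lists, at 0.069 ± 0.009% in G12D and 0.170 ± 0.082% in WT, without overlap, in the direction of all peaks called in both lists.

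**Figure D5:**
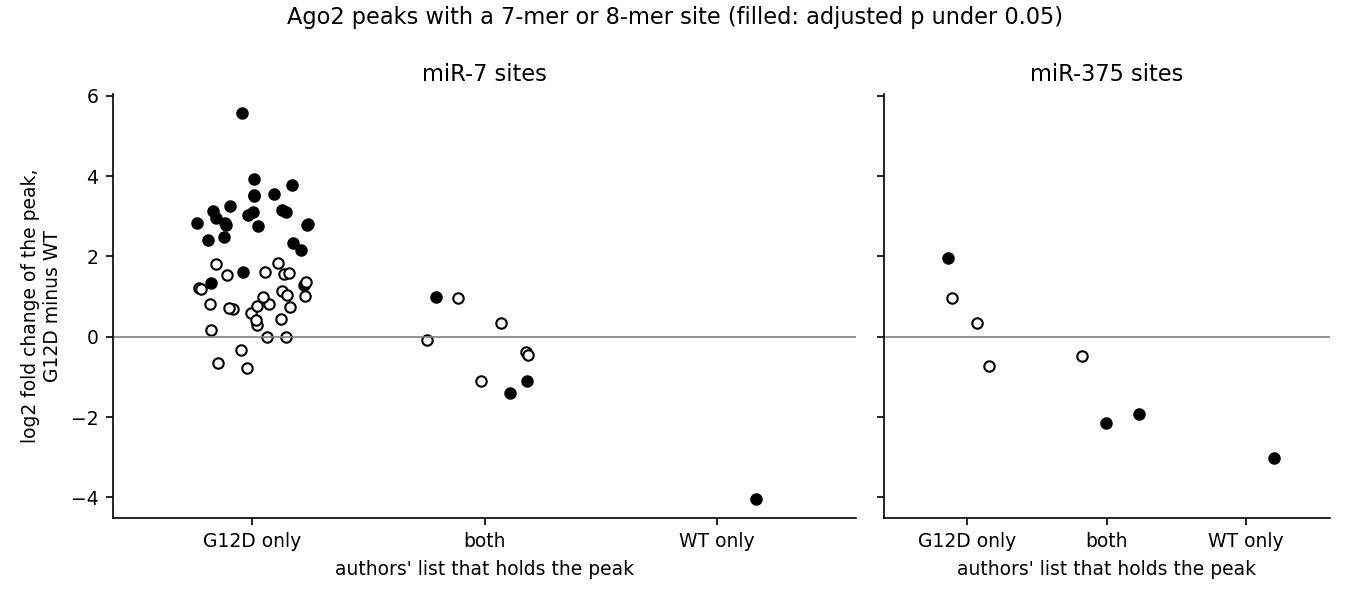
The log2 fold change of each tested peak with a miR-7 or miR-375 site, G12D minus WT (y axis), by the authors' list that holds the peak (x axis, points spread sideways for legibility), filled where the adjusted p was under 0.05. Points of the G12D list are mostly above 0, those in both lists lie on either side of 0, and the 1 peak per family in the WT list alone is below 0.

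Among the miR-7 peaks with the highest means, the 8mer in the 3′ UTR of Slc38a2, an amino acid transporter (chr15:96687964-96688034), had 98.2, 117 and 116 normalized reads in G12D, against 53.1, 49.3 and 61.9 in WT. It was higher in every G12D library, by a log2 fold change of 1.00 ± 0.32 SE (limma adjusted p = 0.0225). That call ended without G12D replicate 2 (limma adjusted p = 0.0626) or 3 (0.0613), without the variance trend (0.0889), with edgeR, whose log2 fold change was 0.46, and with DESeq2, at 0.66. The Slc38a2 peak also holds an 8mer of the miR-200-3p/429-3p family and a 7-mer of miR-140-5p. The 7-mer in the 3′ UTR of Lmbr1l, a membrane protein gene (chr15:98904013-98904072), ran the opposite way, with 41.4, 35.3 and 63.9 normalized reads in G12D, against 102, 87.0 and 106 in WT. Its log2 fold change of -1.09 ± 0.35 SE passed (limma adjusted p = 0.0237), and the call ended without G12D replicate 1 (limma adjusted p = 0.0658) or 2 (0.0837), or WT replicate 1 (0.0579) or 3 (0.0565), and without the variance trend (0.0820). The 2 called miR-7 sites with the highest means over the 6 libraries thus moved in opposite directions. The 8mer in an exon of Maoa, the monoamine oxidase that breaks down serotonin (chrX:16665735-16665792), had means of 41.4 ± 8.28 in G12D and 58.6 ± 18.4 in WT, overlapped and did not pass (log2 fold change -0.45, limma adjusted p = 0.335); that peak holds a miR-183-3p 7-mer as well.

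Klf4, a transcription factor of goblet cell differentiation and a widely studied miR-7 target, carried a 7-mer in its 3′ UTR (chr4:55528015-55528068). This peak had 48.0, 59.0 and 95.5 normalized reads in G12D, against 51.0, 81.1 and 143 in WT. The groups overlapped and the log2 fold change of -0.37 ± 0.43 SE did not pass (limma adjusted p = 0.485). Klf4 had 9 peaks in all, of which 1 was higher and 2 were lower among 8 tested, beside 36.2% and 12.7% of all peaks tested. The higher peak was in the G12D list alone, and 1 of the lower ones was in the WT list alone. The only other peak with a miR-7 site in a listed target was the 8mer in the 3′ UTR of Mknk2, a kinase that phosphorylates the cap-binding factor eIF4E (chr10:80666727-80666793). It had 16.4, 10.5 and 21.5 normalized reads in G12D, against 6.37, 11.6 and 7.73 in WT, overlapping between groups, and its log2 fold change was 0.83 (limma adjusted p = 0.216); a miR-345-5p 8mer lies in the same peak.

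The largest changes at miR-7 sites were in peaks with few or 0 reads in 1 genotype. At the intronic 7-mer of Nr3c2, whose product mediates aldosterone's action in distal colon (chr8:77032489-77032550), the G12D libraries had 46, 256 and 54 reads and the WT libraries 0. With a floor of 3 counts over the WT group this is at least 25.1-fold higher (limma adjusted p = 0.000127). The same peak holds an 8mer of the let-7-5p/miR-98-5p family and a miR-196-5p 7-mer, so its reads cannot be assigned to miR-7 alone. Nr3c2 had 13 peaks, of which 8 of 10 tested were higher and 1 was lower, beside 36.2% and 12.7% of all peaks tested. Whether the site or the transcript changed was not tested. The 8mer in the 3′ UTR of Abhd2, a serine hydrolase (chr7:79362844-79362896), had 31.6, 110 and 83.3 normalized reads in G12D, against 8.49, 2.90 and 1.29 in WT, a log2 fold change of 3.94 ± 0.64 SE (limma adjusted p = 0.000664). Of the 6 tested Abhd2 peaks, 5 were higher. The exonic 8mer of Aff1, a scaffold of transcription elongation (chr5:103784162-103784206), fell to 3.27, 1.24 and 2.15 normalized reads in G12D, against 61.6, 43.5 and 46.4 in WT (log2 fold change -4.03 ± 0.52 SE, limma adjusted p = 0.000274), while 2 of its 3 tested peaks were higher. Actr3, a subunit of the actin-nucleating Arp2/3 complex, and Epb41l4b, a FERM-domain protein gene, also had 0 WT reads at their sites, and were at least 7.03-fold and at least 5.73-fold higher in G12D; the Epb41l4b peak also has a miR-191-5p 8mer. The calls of Nr3c2, Abhd2, Aff1, Actr3 and Epb41l4b were kept in every setting that tested them. All but the Aff1 peak were in the G12D list alone, where 47.0% of tested peaks were higher. The Aff1 peak with the site was in the WT list alone, where 74.3% were lower. Each thus entered through the genotype in which it is high. Every setting used the same peak lists, so the kept calls are no independent support.

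The miR-375 site with the most reads was an 8mer in an exon of Nipbl, which loads cohesin onto chromosomes (chr15:8323674-8323729). It had 37.1, 64.0 and 40.2 normalized reads in G12D, against 144, 125 and 308 in WT, and was lower in every G12D library (log2 fold change -1.93 ± 0.41 SE, limma adjusted p = 0.00290). An 8mer in an exon labelled Gm23212 and Gas5, with Gas5 a non-coding host of small nucleolar RNAs (chr1:161036682-161036737), had 8.72, 8.25 and 2.87 normalized reads in G12D, against 104, 20.3 and 83.8 in WT. It fell by 3.03 ± 0.64 SE on the log2 scale (limma adjusted p = 0.00281), and since 2 genes share the label, its transcript is uncertain; a miR-16-1-3p 8mer and a miR-196-5p 7-mer lie in the same peak. The calls of the Nipbl and Gas5 peaks were kept in all 16 other settings, which used the same peak lists and are no independent support. The Nipbl peak was in both lists, where 25.6% of all tested peaks were lower. The Gas5 peak was in the WT list alone, where 74.3% were lower, and so entered through the genotype in which it is high. The intronic 8mer of Hpcal1, a neuronal calcium sensor family member (chr12:17703349-17703401), also fell, with 4.36, 8.25 and 11.5 normalized reads in G12D, against 34.0, 17.4 and 85.1 in WT (log2 fold change -2.16, limma adjusted p = 0.0123). That call ended without G12D replicate 1 (limma adjusted p = 0.0639) or 2 (0.0503), or WT replicate 3 (0.0584).

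The other 5 miR-375 peaks were less uniform. The 8mer in the 3′ UTR of Eif4ebp2, a repressor of cap-dependent translation (chr10:61430176-61430223), had means of 57.0 ± 12.3 in G12D and 81.3 ± 27.4 in WT and did not pass (limma adjusted p = 0.293). In an exon of Tat, tyrosine aminotransferase (chr8:109991669-109991718), the G12D libraries lay above the WT libraries, at 26.2, 19.2 and 21.5 against 12.7, 5.80 and 16.8 normalized reads, without passing (log2 fold change 0.97, limma adjusted p = 0.133); this peak also has a miR-205-5p 7-mer. The only 7-mer, in the 3′ UTR of Asph, an aspartate hydroxylase gene (chr4:9451992-9452050), was higher in G12D at 19.6, 31.8 and 10.8 normalized reads, against 8.49, 2.90 and 2.58 in WT (log2 fold change 1.97, limma adjusted p = 0.0251), in a peak that also has a miR-148-3p/152-3p 8mer. Its call ended with quantile normalization (log2 fold change 1.10) and without G12D replicate 1 (limma adjusted p = 0.0940) or 2 (0.15), or WT replicate 3 (0.0616). Marveld3, a tight junction protein gene, and Tmem236 had overlapping values and log2 fold changes of 0.34 and -0.72. Apart from the Eif4ebp2 peak, which was in both lists, these peaks were in the G12D list alone. In that list 47.0% of all tested peaks were higher and 0.663% lower. The called Asph peak thus entered through the genotype in which it is high.

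Ago2 peaks in widely studied targets of the 4 members were then counted whatever their site. For miR-375, 8 of 12 genes had peaks, 13 in all, of which 0 carried a miR-375 site as counted here; 2 of the 9 tested peaks were higher and 1 was lower. Both directions occurred within Sec23a, a COPII vesicle coat gene: a 3′ UTR peak at chr12:58959765-58959826 had a log2 fold change of 3.47, and an exonic one at chr12:59007065-59007130 had -2.51 (limma adjusted p = 0.00206 for the 3′ UTR peak and 0.00130 for the exonic one). Mtpn, the islet target through which miR-375 was tied to insulin secretion, had 1 higher peak, with 19.6, 17.7 and 16.5 normalized reads in G12D, against 2.12, 0 and 2.58 in WT. For miR-7, 6 of 14 genes had 22 peaks, with 7 of 19 tested higher and 2 lower. The higher ones were in Irs2, Egfr (2 peaks), Klf4, Mknk1, Mknk2 and Rps6kb1, genes of insulin and growth factor signalling apart from Klf4, and 0 of these 7 carried a miR-7 site. For miR-9, 2 of 12 genes, the cell adhesion gene Cdh1 and the transcription factor gene Foxo3, had 14 peaks, with 4 of 11 tested higher. For miR-137, 3 of 10 genes, Cdc42, Mib1 and Tcf4, had 1 peak each, and those of Mib1 and Tcf4 were tested and higher. The counts of higher peaks among those tested, 7 of 19 for miR-7 targets and 4 of 11 for miR-9 targets, are close to the 36.2% of all peaks. For miR-375 targets the share was 22.2%, and for miR-137 targets both tested peaks were higher, on few peaks each. Every higher peak of the 4 target lists was in the authors' G12D list alone, where 47.0% of all tested peaks were higher. Each thus entered through the genotype in which it is high. Lower peaks were 11.1% for miR-375 targets, 10.5% for miR-7 targets and 0 for the other 2 lists, beside 12.7% of all peaks.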

How the data were processed

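HEAP miRNA and pulldown mRNA libraries of colonic epithelium, 3 per genotype, were analysed. The submitters' processing notes name STAR 2.5.2b, DESeq2, mm10 and GRCm38 without their roles; the peak caller and counting rules are not given in the sources used. The deposited normalized tables hold a signal: reads per mature miRNA or merged peak divided by 1 factor per library by the authors. With the smallest step of each library, 100.0% of values above 0 came out as whole reads within 0.01 read. Columns of log2 fold changes and p-values in the deposited tables of differences are the authors' own. A score of at least 1.30 per peak in the deposited lists was not used. A whole-number count per peak in the deposited annotation was not used. Seed matches, gene labels and annotation classes were taken from the authors' peak table. Coordinates are GRCm38, counted from 1.

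limma 3.58.1 (R 4.3.3) was fitted with a variance trend to log2(normalized reads + 1) over each whole table, with Benjamini-Hochberg adjustment and a threshold of 0.05. Fold changes of low features are understated on this scale. Features with a mean of at least 10 (miRNAs) or 5 (peaks) were tested, 254 of 459 and 4438 of 5554. Ratios were compared by exact permutation; shares of reads at sites are given with no test. Intervals are Wilson 95% intervals, and they and the floor of 3 counts cover counting error only. The fitting steps were tested on simulated data. Alternatives covered pseudocount, filter, scaling, variance trend, replicate block, each library left out, and edgeR 4.0.16 and DESeq2 1.42.0 on the recovered reads. Peaks called in both lists were added after the data were seen.

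The members, gene lists and miRNA lists were chosen with earlier results of these data known. Named were the members, their other arms, miR-7b-5p and the 3 miRNAs most like each member. Named peaks were, per seed, the 5 with the highest mean, the 5 called ones with the largest change, and those with a site in a listed gene; Marveld3, Tmem236 and the list genes with peaks but no member's site were named in addition, after their values were seen.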

Additional observations from a re-analysis of the deposited data

How the results depend on the processing

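miR-375-3p kept its sign in 15 of 16 settings and reversed, to a log2 fold change of -0.013, with the same total per library; it passed in none. miR-7a-5p kept its sign in 16 and passed in none. The call of miR-9-5p was lost with pseudocount 0.5 (1.31), no filter (1.27), the same total per library (0.93), the replicate block (1.27), edgeR (1.22) and DESeq2 (1.39), and its log2 fold change ran from 0.92 to 1.45 with a library left out. That of miR-137-3p ran from -1.77 to -1.23 with a library left out. The replicate numbers were not taken as pairs. Same-numbered miRNA libraries of the genotypes had deviations correlated at -0.00031, -0.42 and -0.32, and none correlated best with its own number. For the pulldown libraries the values were 0.041, -0.036 and -0.0076, and G12D replicate 1 did correlate best with WT replicate 1. With 3 libraries per genotype these values cannot exclude a pairing. Of 254 miRNAs limma called 40; this became 24 at a mean of at least 50, 18 without the variance trend, 25 with the replicate block, and 20 to 56 with a library left out, the lowest without WT replicate 3. The 23 higher and 17 lower became 6 and 31 with the same total, 11 and 26 with edgeR, 13 and 21 with DESeq2 and 19 and 21 with quantile normalization. Called peaks numbered 2170, 790 at a mean of at least 20, 2220 with the replicate block, and 1410 to 2275 with a library left out, the lowest without G12D replicate 2. The 34 called peaks with a member's site became 13 at a mean of at least 20, 21 with quantile normalization, 114 with any seed match, 5 among peaks called in both lists (chosen after seeing the data), and 20 to 38 with a library left out, the lowest without G12D replicate 2; the replicate block left 34. The cause of these differences was not tested, apart from the fewer features tested under a higher filter or in both lists and the more under any seed match. Depth also limits miR-9-5p, which rests on 57 reads in G12D and 34 in WT.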
